A study of Mus musculus with 6 samples.

Results

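The growth hormone axis of the liver was described through 10 genes chosen for their known roles: the receptor genes Ghr and Prlr, the transcription factor genes Stat5a and Stat5b, the feedback inhibitor genes Socs2 and Cish, the secreted outputs Igf1 and Igfals, and the repressor genes Bcl6 and Cux2. Every probe set whose platform symbol is one of these genes was taken, which gave 24 of the 45037 probe sets on the array and covered 9 of the 10 genes. No probe set was paired with Prlr, whose expression was not analysed here. The probe sets were compared between livers of 3 SM mice (strain SM/J) and 3 NZB mice (strain NZB/BinJ), all untreated females of 8 weeks, with 1 array per mouse. All 6 mice ate chow after weaning at 3 weeks, were fasted for 4 hours and had their livers perfused with 50 mL of phosphate-buffered saline before freezing. The labels name no mutation, transgene or agent, and the comparison asks how the liver transcriptome differs between the strains.

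Growth hormone from the pituitary binds its receptor on hepatocytes and activates the kinase JAK2, which phosphorylates STAT5a and STAT5b, and these enter the nucleus and bind DNA. Their targets include Igf1 and Igfals, which leave the liver as the hormone's endocrine output, and Socs2 and Cish, which dampen the signal. In rodents males release the hormone in sharp pulses and females more evenly, and this difference sets many of the sex differences of liver gene expression. BCL6 is a repressor richer in male liver that acts on female-biased genes, and CUX2 is a factor of female liver that represses male-biased genes.

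Values are log2 expression. Differences are NZB minus SM with the standard error (SE) of a limma fit over all 45037 probe sets. Calls, higher or lower, were made at a Benjamini-Hochberg adjusted p under 0.05 over all of them. The arrays are labelled as biological replicates, and their number, 3 per strain, limits the precision of each value. Array medians lay between 6.60 and 6.66. SM replicate 2 stood apart in Xist, the RNA of the inactive X chromosome, at 7.32 against 12.61 to 12.91 in the other 5 arrays for the brightest probe set. The 9 probe sets of Y-linked genes read 3.66 to 5.67 over all arrays and at most 5.40 in SM replicate 2. All 11 calls among the 24 probe sets were also made without it.

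The hepatocyte markers measured, 6 of 8 listed, had none higher and 1 lower in NZB, and their summed level on the linear scale was 120240 to 121964 in SM and 121425 to 125972 in NZB. Each gene was represented by its brightest probe set, and over all 18193 such genes 7.09% were called higher and 11.2% lower. Markers of several other liver cell types differed more. Summed B and plasma cell markers reached 874 to 932 in SM and 6612 to 13201 in NZB (3 of 8 higher, none lower), T and NK cell markers 824 to 894 and 969 to 1006 (4 of 7 higher, none lower), and macrophage markers 6141 to 6760 and 8098 to 9455 (5 of 8 higher, 1 lower). The B and plasma cell sum was carried by the antibody genes Ighm and Jchain, with differences of 4.35 and 4.28, while the other 6 members differed by 0.12 to 0.38 and the list's median was 0.29. Of the T and NK cell calls, 1 was left without SM replicate 2, and 2 were left without SM replicate 1 or any one NZB array. Sinusoidal endothelial markers summed to 6332 to 6849 and 6960 to 7790 (3 higher and 2 lower of 8, and 2 and 2 without SM replicate 2), stellate cell markers to 5362 to 6012 and 3971 to 5197 (1 of 9 lower, none higher), and cholangiocyte markers to 769 to 797 and 786 to 845 (none of 5 called). In whole liver, fewer cells of a type and less RNA per cell cannot be told apart.

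Among the 24 probe sets, NZB was higher in 9 and lower in 2, and the other 13 were not called. Over all probe sets 14.8% were called, 6.09% higher and 8.69% lower. The 9 that were higher comprised all 4 of Igf1, the only probe set of Igfals, both of Bcl6, 1 of 3 for Ghr and 1 of 6 for Socs2. The 2 that were lower belonged to Cux2. Arrays of the strains did not overlap for 14 of the 24, against 34.3% of all probe sets. The secreted outputs and Bcl6 thus lay above SM in NZB and most of Cux2 below it, while no probe set of the STAT5 genes themselves passed.

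**Figure D1:**
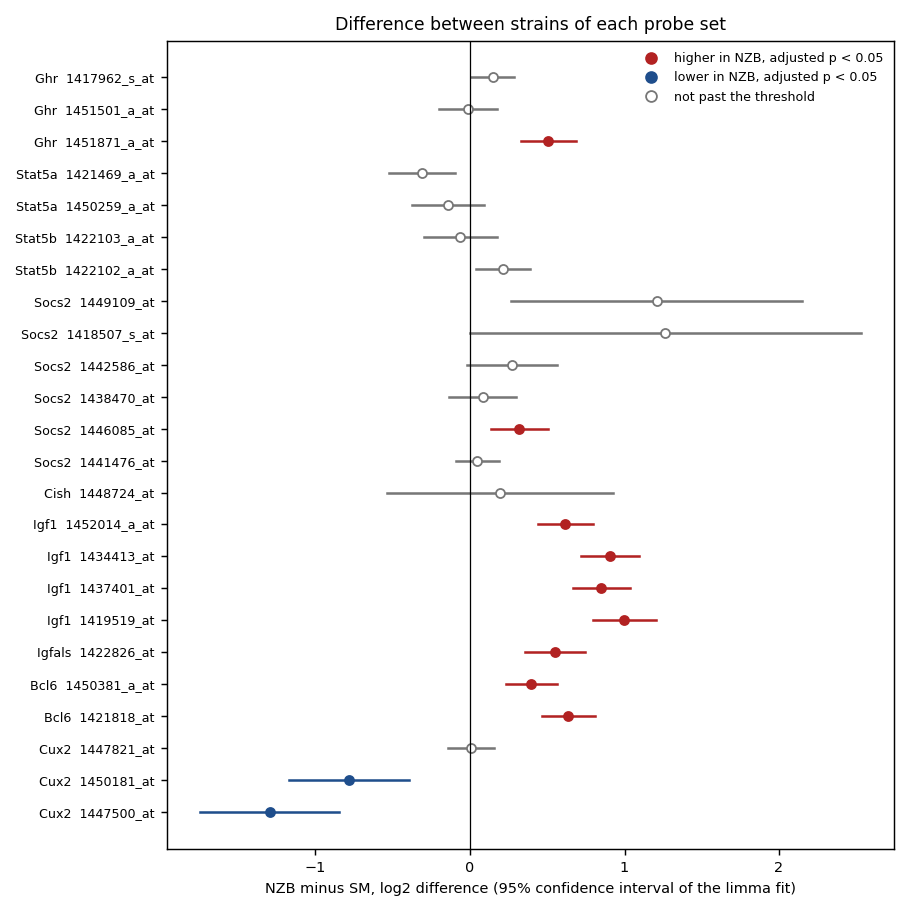
Difference between strains (NZB minus SM, log2, x axis) of each of the 24 probe sets, grouped by gene, with the 95% confidence interval of the limma fit as a bar; filled points passed an adjusted p of 0.05. All 4 probe sets of Igf1 lie between 0.62 and 1.00, 2 of Cux2 lie at -0.78 and -1.29, and the widest intervals belong to 2 probe sets of Socs2.

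Igf1 encodes insulin-like growth factor 1, the main growth signal that the liver releases under growth hormone. Its brightest probe set, 1452014_a_at, read 12.63, 12.46 and 12.60 in SM and 13.24, 13.06 and 13.24 in NZB. Every NZB array lay above every SM array, and the means were 12.56 ± 0.09 and 13.18 ± 0.11 (SD, n = 3 each). The difference was 0.62 (SE 0.08, adjusted p = 0.00108), a 1.54-fold higher level in NZB.

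The other Igf1 probe sets gave larger differences. Probe set 1434413_at read 11.97, 11.75 and 11.82 in SM and 12.83, 12.62 and 12.79 in NZB (0.90, SE 0.08, adjusted p = 0.000188), and 1437401_at read 11.88, 11.61 and 11.65 against 12.61, 12.50 and 12.57 (0.85, SE 0.08, adjusted p = 0.000261). Probe set 1419519_at read 10.62, 10.43 and 10.34 against 11.55, 11.32 and 11.51, which is 2.00-fold higher in NZB (1.00, SE 0.09, adjusted p = 0.000185). Strains were separated without overlap in each of the 4. Within each array, 1419519_at stood at -2.01, -2.03 and -2.26 relative to 1452014_a_at in SM and at -1.69, -1.73 and -1.73 in NZB. This pair was chosen after the differences were seen, so its gap of 0.38 between strains is a description. All 4 calls of Igf1 held in every setting tried for them, with adjusted p between 3.8e-05 and 0.0081. Macrophages also make Igf1, and their marker list was higher in NZB in 5 of 8 members, against 7.09% of all represented genes. The part of these cells in the difference was not tested.

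Igfals encodes the acid-labile subunit, which binds IGF1 together with IGFBP3 in blood and keeps it in circulation. Its probe set 1422826_at read 10.75, 10.46 and 10.69 in SM and 11.25, 11.10 and 11.21 in NZB. All NZB arrays were above all SM arrays. The difference was 0.55 (SE 0.09, adjusted p = 0.00343), or 1.46-fold. Igfbp3, the third protein of that complex, was higher as well: 7.68, 7.21 and 7.22 in SM against 8.77, 8.49 and 8.92 in NZB (1.36, SE 0.14, adjusted p = 0.000462, 2.56-fold). That value comes from probe set 1458268_s_at, a type that may also read other transcripts. The gene's other probe set, 1423062_at, differed by 1.39 (SE 0.21, adjusted p = 0.00299). The 3 genes of the circulating complex were therefore all called higher in NZB.

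STAT5 is known to bind the palindrome TTCNNNGAA, which reads the same on both strands. It was searched as those letters in windows of 250 bases before and 50 after annotated gene starts (RefSeq, mouse assembly GRCm38.p6, strain C57BL/6J, so not the sequence of either strain compared here). Windows were found for 9 of the 10 genes, 18 in all, and none for Socs2, which was therefore not searched. Of these, 6 held the palindrome, against 8.3% of all 32851 windows. The 6 belonged to Cish, to 2 starts of Igfals, 2 of Bcl6 and 1 of Prlr. No match lay in the windows of Igf1, Ghr, Stat5a, Stat5b and Cux2. Sequence outside the windows was not searched, so these genes may have matches elsewhere. A match is a description of the sequence and not a site shown to be bound. Igfals is shown because its RNA was higher in NZB, first as the 250 bases before its outermost start (chr17:24877594-24877843, plus strand) and then as the match 58 bases before its second start (chr17:24878163-24878191, plus strand), with the palindrome in capitals.
Igfals start 1: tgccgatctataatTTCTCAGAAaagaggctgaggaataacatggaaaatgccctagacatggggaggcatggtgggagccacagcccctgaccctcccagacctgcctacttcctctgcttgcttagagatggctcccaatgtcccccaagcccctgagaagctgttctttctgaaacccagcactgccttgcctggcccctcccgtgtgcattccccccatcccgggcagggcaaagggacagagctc
Igfals start 2: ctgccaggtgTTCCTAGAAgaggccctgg

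Bcl6 encodes a zinc finger repressor whose binding motif resembles that of STAT5. Its brighter probe set, 1450381_a_at, read 7.11, 6.99 and 7.07 in SM and 7.41, 7.39 and 7.57 in NZB (0.40, SE 0.07, adjusted p = 0.00668, 1.32-fold). Probe set 1421818_at read 6.80, 6.86 and 6.65 against 7.38, 7.35 and 7.49 (0.64, SE 0.07, adjusted p = 0.000769, 1.56-fold). In both, the lowest NZB array was above the highest SM array. Both calls were made in every setting tried for them, with adjusted p between 0.00048 and 0.032. Bcl6 is also known from germinal centre B cells and follicular helper T cells. The B and plasma cell list and the T and NK cell list were higher in NZB in 3 of 8 and 4 of 7 members. Without SM replicate 2 these were 3 and 1, and over all represented genes 7.09% were called higher. The part of these cells in the Bcl6 difference was not tested.

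Both annotated starts of Bcl6 carried the palindrome. The 250 bases before the outermost start (chr16:23988853-23989102, minus strand) held 1 match, 118 bases before it. The window of the other start held 3 matches, 168, 122 and 88 bases before it, a number reached by 0.0335% of all windows. They lie at chr16:23981433-23981461, chr16:23981387-23981415 and chr16:23981353-23981381 on the minus strand and are shown with 10 bases on each side. Capitals mark the palindrome.
Bcl6 start 1: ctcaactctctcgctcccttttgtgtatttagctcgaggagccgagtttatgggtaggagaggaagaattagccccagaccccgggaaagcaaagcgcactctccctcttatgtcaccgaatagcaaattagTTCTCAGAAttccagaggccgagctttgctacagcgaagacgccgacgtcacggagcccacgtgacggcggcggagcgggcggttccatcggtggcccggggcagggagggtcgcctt
Bcl6 start 2, first match: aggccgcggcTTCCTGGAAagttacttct
Bcl6 start 2, second match: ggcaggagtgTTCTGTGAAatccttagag
Bcl6 start 2, last match: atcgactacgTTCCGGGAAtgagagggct

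Cux2, a homeobox gene whose liver expression is known as female-specific, went the other way in 2 of its 3 probe sets. Probe set 1447500_at read 8.31, 7.40 and 7.66 in SM and 6.50, 6.66 and 6.32 in NZB. Its lowest SM array lay above its highest NZB array, and the difference was -1.29 (SE 0.20, adjusted p = 0.00308), 2.45-fold lower in NZB. Probe set 1450181_at read 8.56, 8.02 and 7.85 against 7.36, 7.56 and 7.17, again without overlap (-0.78, SE 0.17, adjusted p = 0.0168). The spread among SM arrays was wide in both, with SDs of 0.47 and 0.38, and SM replicate 1 was the highest. Without NZB replicate 1 or NZB replicate 3 the second call ended (adjusted p = 0.0504 and 0.0743), and without SM replicate 2 both calls were made.

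The brightest Cux2 probe set, 1447821_at, gave a different picture. It read 8.76, 8.81 and 8.84 in SM and 8.72, 8.85 and 8.86 in NZB, with a difference of 0.01 (SE 0.07, 95% confidence interval -0.14 to 0.15). Within each array, 1447500_at stood at -0.46, -1.41 and -1.18 relative to it in SM and at -2.21, -2.19 and -2.53 in NZB, again a pair chosen after its differences were seen. Averaged over its 3 probe sets, Cux2 differed by -0.69 (SE 0.12, adjusted p = 0.00686). Which transcripts of the gene each probe set reads was not analysed here, nor was the sequence of either strain under the probes.

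The Ghr gene gives the full receptor and, by another splice form, the soluble growth hormone binding protein. Probe set 1417962_s_at read 12.56, 12.54 and 12.46 in SM and 12.66, 12.64 and 12.70 in NZB. Those arrays did not overlap, but the difference of 0.15 (SE 0.06, adjusted p = 0.146) did not pass. Probe set 1451501_a_at read 12.17, 12.04 and 11.91 against 12.07, 11.93 and 12.08 and overlapped widely (-0.01, SE 0.08, 95% confidence interval -0.20 to 0.17).

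The dimmest Ghr probe set, 1451871_a_at, was called higher. It read 9.31, 9.60 and 9.43 in SM and 9.96, 9.95 and 9.94 in NZB, with all NZB arrays above all SM arrays. The difference was 0.51 (SE 0.08, adjusted p = 0.00327), or 1.42-fold, and it was called in every setting tried for it (adjusted p from 0.0019 to 0.017). Relative to 1451501_a_at on the same array, it lay at -2.86, -2.44 and -2.47 in SM and at -2.11, -1.98 and -2.13 in NZB, a gap of 0.52 between strains. These are the probe sets of Ghr with the highest and lowest difference, chosen after the values were seen, so the gap is a description. As the mean over its 3 probe sets, Ghr differed by 0.21 and was called higher (limma adjusted p = 0.0263). The splice form that each probe set reads was not analysed here, nor was the sequence of either strain under the probes.

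Stat5a and Stat5b encode the closely similar STAT5 proteins and lie side by side on chromosome 11, next to Stat3. The brighter Stat5a probe set, 1421469_a_at, read 8.72, 8.63 and 8.71 in SM and 8.54, 8.17 and 8.42 in NZB. Every SM array was above every NZB array, yet the difference of -0.31 (SE 0.09) stayed just outside the threshold (adjusted p = 0.0561). It passed without NZB replicate 1 (0.0331), with the array medians aligned (0.0460) and with adjustment over represented genes only (0.041). The other probe set, 1450259_a_at, read 6.94, 7.19 and 7.22 against 7.10, 6.78 and 7.05 and overlapped (-0.14, SE 0.10, adjusted p = 0.406).

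For Stat5b, the form that carries most growth hormone signalling in liver, 1422103_a_at read 9.78, 9.41 and 9.45 in SM and 9.57, 9.36 and 9.53 in NZB (-0.06, 95% confidence interval -0.30 to 0.18). Probe set 1422102_a_at read 8.44, 8.70 and 8.60 against 8.79, 8.75 and 8.84, without overlap, and its difference of 0.21 (SE 0.08, adjusted p = 0.104) passed only after quantile normalization (0.0427). The neighbouring Stat3 differed by -0.0019 (adjusted p = 0.991). STAT5 acts mainly through phosphorylation, which these RNA levels do not measure.

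Socs2 encodes a suppressor of cytokine signalling that targets the growth hormone receptor, and its RNA is known to follow recent hormone exposure. Its brightest probe set, 1449109_at, read 8.53, 9.30 and 8.42 in SM and 10.45, 10.58 and 8.86 in NZB. NZB replicates 1 and 2 lay above all SM arrays, whereas NZB replicate 3 fell among them, below SM replicate 2. The means were 8.75 ± 0.48 and 9.96 ± 0.96 (SD, n = 3 each), and the difference of 1.21 (SE 0.42, adjusted p = 0.0866) did not pass. Probe set 1418507_s_at gave 7.89, 8.56 and 7.26 against 9.95, 9.89 and 7.67, with a difference of 1.26 (SE 0.56, adjusted p = 0.172).

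Both outcomes depended on NZB replicate 3. Without it the differences were 1.76 (adjusted p = 0.00466) and 2.01 (0.00831), and both passed. They also passed with all arrays and the replicate number as a block in the limma fit (adjusted p = 0.0168 and 0.0206). Those numbers were not taken as pairs. The mean SD of these probe sets within a strain was 0.72 and 0.97, where the median over all probe sets was 0.0845. Within NZB the highest and lowest arrays differed 3.31-fold and 4.86-fold.

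The 4 dimmer Socs2 probe sets gave smaller values. Probe set 1442586_at differed by 0.27 (adjusted p = 0.197), 1438470_at by 0.08 (0.625) and 1441476_at by 0.05 (0.654). The only call came from 1446085_at, at 5.22, 5.37 and 5.21 in SM and 5.45, 5.62 and 5.68 in NZB (0.32, SE 0.08, adjusted p = 0.0295). All of its arrays lay near or under the highest Y-linked reading of 5.67, the range of RNA that females lack. Its call ended without SM replicate 1, SM replicate 3, NZB replicate 2 or NZB replicate 3 (0.0715 to 0.112).

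Cish, which encodes the related inhibitor CIS and is an early STAT5 target, had 1 probe set. It read 8.93, 9.12 and 8.72 in SM and 8.75, 10.04 and 8.56 in NZB. NZB replicate 2 stood above the other 5 arrays, and the strains overlapped (0.19, SE 0.32, 95% confidence interval -0.53 to 0.92). SM replicate 2 was the highest and SM replicate 3 the lowest SM array in Cish and in both bright Socs2 probe sets, and NZB replicate 3 was the lowest NZB array in all 3. Cish is shown because its palindromes form a close pair at the annotated start, from the start base on (chr9:107296654-107296683, plus strand, capitals for the palindromes). Windows with at least 2 matches made up 0.457% of all windows.
Cish start: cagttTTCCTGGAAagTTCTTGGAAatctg

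**Figure D2:**
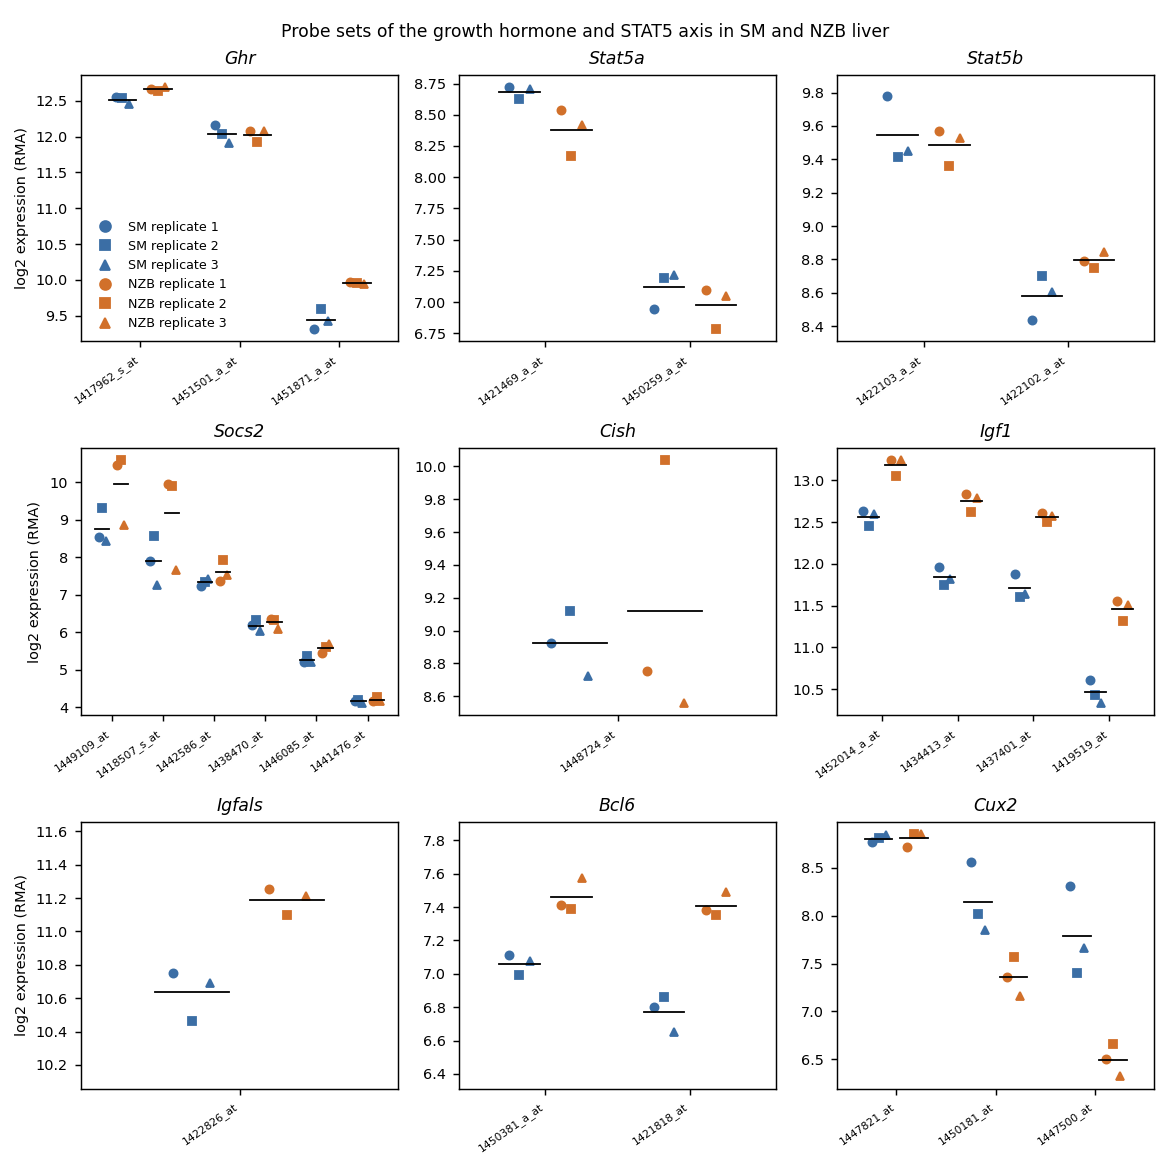
Log2 expression (RMA, y axis) of each probe set of the 9 genes in 3 SM arrays (blue) and 3 NZB arrays (orange), with symbols for the replicate and black bars for the strain means; probe sets of a gene are ordered by brightness and each panel has its own scale. The strains separate in all panels of Igf1, Igfals and Bcl6, and in the brightest Socs2 probe sets and Cish a single NZB array stands away from the others.

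The other genes of the pathway came from lists chosen by role, with each gene represented by its brightest probe set. Over all 18193 represented genes, 18.3% were called, 7.09% higher and 11.2% lower, and the median difference was 0.02; arrays of the strains did not overlap for 39.4% of them. Of 27 measured genes for JAK kinases, phosphatases, adaptors and SOCS proteins, 3 were higher, 3 were lower and 21 did not pass (median -0.10). Higher were Sirpa (0.41, adjusted p = 0.00502), a membrane partner of the phosphatase SHP2, Socs3 (0.47, 0.0306), a further feedback inhibitor, and the adaptor gene Sh2b2 (0.29, 0.0238). Lower were Jak1 (-0.34, 0.00616), Ptpn11 (-0.34, 0.0202), which encodes SHP2, and Socs7 (-0.39, 0.0367). The kinase gene that the receptor uses, Jak2, read 8.80, 8.63 and 8.57 against 8.50, 8.62 and 8.58 and did not pass (-0.10, adjusted p = 0.445). Without SM replicate 2, the calls of Socs3, Sh2b2, Ptpn11 and Socs7 ended (adjusted p from 0.0515 to 0.127), and 1 gene was then higher and 2 lower. The calls of Socs3, Sh2b2, Ptpn11 and Socs7 also ended without NZB replicate 2 (0.0541 to 0.112), and the list then had 1 in each direction. Without NZB replicate 3 the list had 1 higher. With the array medians aligned, 3 were higher and 6 lower.

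In the IGF system, 15 genes were measured, of which Igfbp3 was higher and Igfbp1 and the insulin receptor gene Insr were lower (median 0.02). Igfbp1, a binding protein induced by fasting, read 12.07, 12.51 and 11.95 in SM and 11.33, 9.46 and 10.55 in NZB (-1.73, SE 0.38, adjusted p = 0.0170). Insr differed by -0.46 (SE 0.08, adjusted p = 0.00565). Igf1r, the IGF1 receptor gene, differed by 0.04 (adjusted p = 0.797) and Igf2 by 0.15 (0.271). Leaving out SM replicate 2 (adjusted p = 0.0679) or NZB replicate 3 (0.0568), or using trended and robust variances (0.119), ended the call of Igfbp1.

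Among 15 measured transcription factors of the liver's growth hormone network, 5 were lower in NZB, none was higher and 10 did not pass (median -0.09). Cebpb, a factor of acute and fasting responses, read 11.83, 12.35 and 12.29 in SM and 10.93, 10.73 and 10.78 in NZB (-1.34, SE 0.13, adjusted p = 0.000255). Nr1i2, which encodes the xenobiotic receptor PXR, differed by -1.18 (SE 0.11, adjusted p = 0.000159) and the cofactor gene Trim24 by -1.05 (SE 0.09, adjusted p = 0.00017). The remaining lower members were Hnf4a and Cebpa (-0.38 and -0.25, adjusted p = 0.0169 and 0.0435), both central to hepatocyte identity, and their calls ended without SM replicate 2 (0.0513 and 0.0564), leaving 3; that of Cebpa also ended without each of the other arrays (0.0572 to 0.131). Tox, a female-biased factor, differed by -0.01 (adjusted p = 0.948).

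Genes through which the hormone's pattern shows in liver differed in many members. The male-biased list had 21 measured members, of which NZB was higher in 14 and lower in none, with a median difference of 0.81. The largest were Hsd3b5, a hydroxysteroid dehydrogenase gene, at 5.85, 5.85 and 6.23 in SM and 9.92, 9.79 and 11.16 in NZB, the urinary protein gene Mup10 (3.58, SE 0.20) and the fatty acid elongase gene Elovl3 (1.99, SE 0.24). Egfr, the epidermal growth factor receptor gene, was 1.96-fold higher (9.70, 10.09 and 9.99 against 10.99, 10.75 and 10.95, adjusted p = 0.000565). The complement gene C8b was 2.44-fold higher (9.98, 10.09 and 10.16 against 11.48, 11.05 and 11.58, adjusted p = 0.000292). Egfr and C8b were chosen after their values were seen. Without SM replicate 2, 13 members were higher, all among the 14, and the median was 0.79.

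The female-biased list had 22, with NZB lower in 11, higher in 4 and a median difference of -0.53. Cyp39a1 and Cyp17a1, which hydroxylate sterols and steroids, differed by -5.92 and -5.47 (adjusted p = 3.3e-08 for both). Sult2a2, a bile acid sulfotransferase gene, differed by -4.25, and its call ended without SM replicate 2 (adjusted p = 0.0564) and with trended and robust variances (0.139). The 4 exceptions were Nt5e (2.31, SE 0.22), an ectonucleotidase gene, Hao2 (1.17, SE 0.31), Slc22a26 (1.00, SE 0.11) and Ntrk2 (0.40, SE 0.09). Of the 6 arrays, Hao2 could spare only SM replicate 1 and keep its call (adjusted p from 0.0819 to 0.104 otherwise). Ntrk2 lost its call without SM replicate 1, SM replicate 2, NZB replicate 2 or NZB replicate 3 (0.0511 to 0.0936). Without SM replicate 2, 9 members were lower and 2 higher (median -0.47), and 2 were higher without NZB replicate 2 and without NZB replicate 3. Close paralogs exist for many genes of both lists, such as the Mup, Cyp2b, Cyp3a, Cyp4a, Ugt2b, Sult, Acot and Slc22a genes. Which copy gives those values is uncertain. Both sex-biased lists overlap with genes already known to differ in these data, so their direction is not independent evidence.

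**Figure D3:**
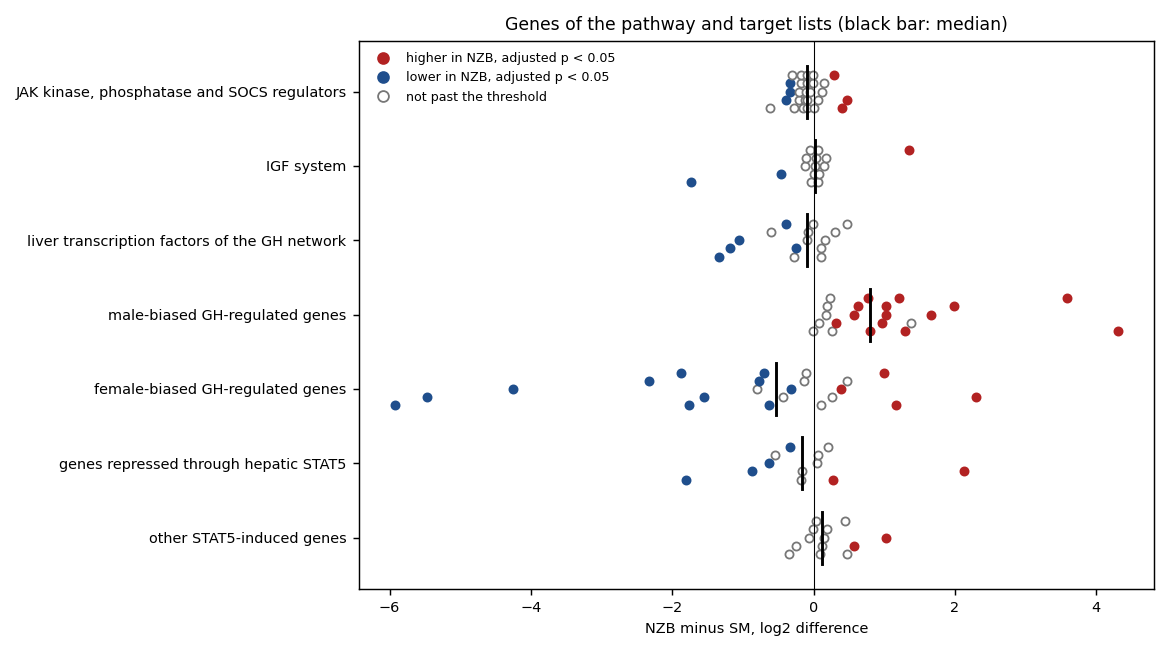
Difference between strains (NZB minus SM, log2, x axis) of the measured genes of 7 pathway and target lists, 1 point per gene; filled points passed an adjusted p of 0.05 and the black bar is the list's median. The male-biased list has 14 members called higher and none lower, the female-biased list 11 lower and 4 higher, and the medians of the other lists lie between -0.17 and 0.12.

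NZB replicate 3, the lowest NZB array in both bright Socs2 probe sets though not in every Socs2 probe set, was also the extreme NZB array for many sex-biased genes. It was the highest NZB array for 15 of the 21 male-biased genes, against 34.7% of all represented genes, and the lowest for 13 of the 22 female-biased genes, against 29.5%. Cyp4a12a, a male-biased hydroxylase gene, read 5.72, 6.07 and 8.69 in NZB and 5.39, 5.69 and 5.29 in SM, and Cyp3a16, a female-biased cytochrome gene, read 7.46, 7.53 and 5.91 against 8.86, 8.24 and 9.09. Sult2a2 read 10.71, 10.60 and 6.43 in NZB and 13.51, 13.52 and 13.46 in SM. Onecut1, the growth hormone-responsive factor HNF6, read 9.35, 9.91 and 8.21 in NZB and 8.23, 8.76 and 9.07 in SM. NZB replicate 3 was the lowest of the 3, as in both bright Socs2 probe sets. This pattern and Cyp4a12a, Cyp3a16 and Onecut1 were singled out after their values were seen. Without NZB replicate 3, 14 male-biased genes were higher (median 0.59) and 10 female-biased genes were lower (median -0.38), so the medians kept their sign without it. Xist read 12.61 in this array, its summed B and plasma cell markers were 13201 against 6612 and 7459 in the other NZB arrays, and the part of those cells was not tested. Ighm (13.32 against 12.32 and 12.49) and Jchain (11.22 against 9.81 and 10.09) carried that sum. Of the 8 markers, NZB replicate 3 was the highest NZB array for 4, with Ms4a1 (6.69) and Mzb1 (7.67) among them. It was the lowest for 2, Cd79b and Blk (5.98 and 6.30).

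**Figure D4:**
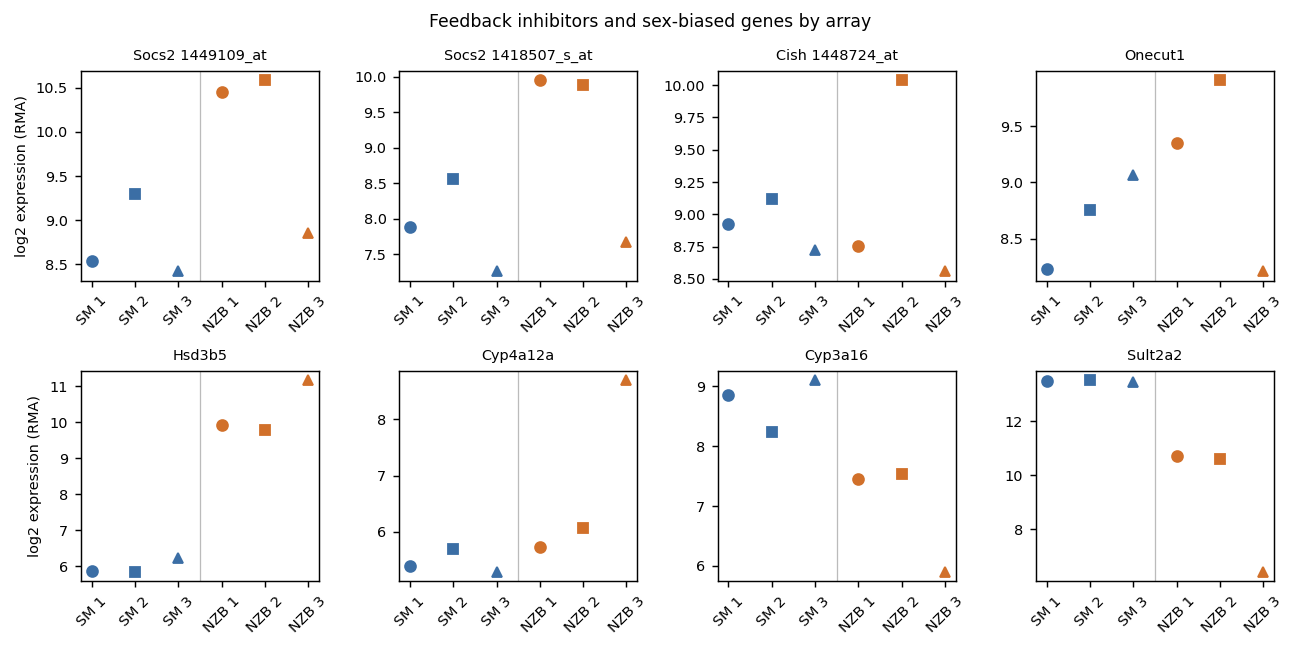
Log2 expression (RMA, y axis) by array (x axis: 3 SM arrays in blue, 3 NZB arrays in orange) for the 2 bright Socs2 probe sets, Cish, Onecut1, the male-biased genes Hsd3b5 and Cyp4a12a, and the female-biased genes Cyp3a16 and Sult2a2; each panel has its own scale. NZB replicate 3 is the lowest NZB array for Socs2, Cish, Onecut1, Cyp3a16 and Sult2a2 and the highest for Hsd3b5 and Cyp4a12a.

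Genes that hepatic STAT5 is known to hold down, most of them in lipid uptake and storage, were called in both directions. NZB was higher in 2 and lower in 4 of the 12 measured, with 6 not called (median -0.17). Lpl, lipoprotein lipase, read 9.57, 8.94 and 9.14 in SM and 11.48, 11.35 and 11.20 in NZB (2.12, SE 0.15, adjusted p = 3.9e-05), and Pparg differed by 0.28 (adjusted p = 0.0435). Cd36, a fatty acid transporter gene, read 11.44, 11.45 and 11.26 against 9.70, 9.71 and 9.31 (-1.81, SE 0.11, adjusted p = 2.0e-05), and Plin4, Vldlr and Srebf1 were lower by smaller amounts (-0.87, -0.63 and -0.33). Pparg, Plin4, Vldlr and Srebf1 lost their calls without SM replicate 2 (adjusted p from 0.0941 to 0.146), and Cd36 was then the sole lower member. Other single arrays left out also ended these calls, such as SM replicate 1 for Pparg, Vldlr and Srebf1 and each NZB array for Plin4. Of 13 further measured genes that STAT5 is known to induce in liver or blood cells, 2 were higher and none lower: Gadd45g, a stress response gene (6.87, 6.91 and 6.43 against 7.62, 7.31 and 8.35, difference 1.02, adjusted p = 0.0203), and Mbl1, a mannose-binding lectin gene (0.57, SE 0.09, adjusted p = 0.0032). The call of Gadd45g ended without SM replicate 3 (0.0539) and with trended and robust variances (0.081).

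Likeness to the axis genes was measured as Pearson's r of log2 expression over the 6 arrays, among represented genes outside the axis. It is a description, since all pairs share the same 6 arrays and the difference between strains adds to r. The Cux2 probe set 1447500_at, which had the largest called difference, was most like Gosr2 (r = 0.997), Cfdp1 (0.995), Tex261 (0.995), Msantd2 (0.995) and Dct (0.994), whose own differences ran from -0.83 for Dct to -0.16 for Cfdp1. The Socs2 probe set 1418507_s_at, which varied most within strains, was most like Rinl (r = 0.977), Ccnjl (0.974), 4833422M21Rik (0.973), Tbr1 (0.971) and 1700012D14Rik (0.969). Their differences were small, from 0.09 for Tbr1 to 0.23 for Rinl, and each had NZB replicate 3 as its lowest NZB array.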

How the data were processed

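Liver RNA of 6 mice, 3 SM and 3 NZB, was measured on 1 expression array per mouse. Per the submitters' processing notes the deposited values come from RMA, which corrects background, normalizes arrays and summarizes probes. Version and settings: not given in the sources used here. Their range, 3.43 to 14.90, is that of log2 expression, as which the deposited values were taken. All 6 columns carried their sample's name and 0 columns were left unmatched.

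Probe sets were named from the platform's annotation, and all 34741 of the 34945 probe sets with 1 gene that matched a RefSeq table by Entrez ID kept their symbol. A further 932 had several genes and 9160 none. A gene outside the axis was represented by its brightest probe set by the mean of the 6 arrays. The strain difference was fitted by lmFit and eBayes (limma 3.58.1, R 4.3.3), two-sided, with Benjamini-Hochberg adjustment over 45037 probe sets, checked on simulated data. RMA values of dim probe sets understate differences.

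The axis genes and gene lists were chosen with earlier results of these data known. Every axis probe set was described. From each list up to 3 genes per direction with the largest called differences were named, and others are marked as chosen afterwards or complete a count. Same-numbered arrays of the strains deviated together little (correlations of 0.037, -0.055 and 0.025 across probe sets), so the numbers were not taken as pairs. Such correlations cannot exclude a pairing. Alternatives were single arrays left out, array medians aligned, quantile normalization, trended and robust variances, array weights, dim or cross-hybridizing probe sets left out, and 2 summaries per gene.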

Additional observations from a re-analysis of the deposited data

How the results depend on the processing

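With each array left out in turn, the calls over all probe sets numbered 3741 to 6386 against 6659 (1482 to 2482 higher, 2259 to 3904 lower), and among the 24 axis probe sets 8 to 10 were higher and 1 or 2 lower. Male-biased genes called higher numbered 13 to 14 and female-biased genes called lower 9 to 11. Adjusted over represented genes, 3827 genes were called (1541 higher, 2286 lower), with 3 axis genes higher and 1 lower of 9; with the mean over the probe sets of a gene, 3461 (1568 higher, 1893 lower), with 4 and 1. Fewer features are tested in both. The brightest Cux2 probe set then went from 0.01 to -0.69, because the mean takes in the other probe sets of the gene. Calls that were higher made up 41.2% of all, 31.3% when medians of the arrays were aligned and 46.0% under quantile normalization. The axis then had 9 higher and 3 lower, and 10 higher and 2 lower. With the replicate block 6006 probe sets were called, 11 axis probe sets higher and 3 lower; it added Stat5a 1421469_a_at (limma adjusted p = 0.0389) and both bright Socs2 probe sets (0.0168 and 0.0206). The block also gave 6 lower genes in the kinase and SOCS list and 2 higher T and NK cell markers. The numbers were not taken as pairs, and not every array correlated best with its own number, though this cannot exclude a pairing. Of 326 axis values under alternatives, 298 kept direction and call, 10 gained a call, 6 lost it and 12 changed sign, 11 of them called in neither fit. With each array left out in turn, Ghr 1451501_a_at ran from -0.0786 to 0.0518, Stat5b 1422103_a_at from -0.1275 to 0.0544, Cish 1448724_at from -0.27 to 0.47 and Cux2 1447821_at from -0.0185 to 0.0512. Stat5b 1422103_a_at was 0.0251 under quantile normalization and 0.0763 as the mean over probe sets, and Cux2 1447821_at was -0.0272 when medians were aligned. The 9 axis genes rest on probe sets of which 22 of 24 lie above the highest mean of a Y-linked probe set, 5.54, and differences of dimmer ones can be understated.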
